A study of Bos taurus with 8 samples.

Results

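DNA methylation was examined at 10 inflammatory cytokine and chemokine genes, IL1A, IL1B, TNF, IL6, CSF2, IL8, CXCL2, CCL2, CCL5 and CCL20, in cultured bovine skin fibroblasts. Every 3Kb window of the genome that carried one of these gene symbols was taken, with 2 windows on each side. The rule gave 66 gene windows and 46 flanking or intervening windows, 112 in all, of 902984 windows. The 66 windows formed 11 loci, because the symbol IL6 was found on chromosomes 4 and 8. Across the genome, 354832 windows carried a gene name and 26209 genes had at least 1 window.

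The dermal fibroblasts came from shoulder skin biopsies of 4 Holstein (dairy) and 4 Angus (beef) heifers of the same age, drawn at random from a larger set of cultures. All cultures were un-treated and at passage 5, and each gave 1 MIRA-Seq library, so that breed was the only labelled difference between the groups. MIRA-Seq sequences DNA fragments pulled down by methyl-CpG-binding proteins, and a window with more methylated CpG sites yields more reads. The comparison of breeds addressed whether the methylome of resting fibroblasts differs between dairy and beef animals.

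Cytokines and chemokines are secreted proteins through which cells call and activate leukocytes. Dermal fibroblasts make many of them when pattern-recognition receptors or IL-1 receptors are engaged, and transcription factors of the NF-kappa-B and AP-1 families drive much of that transcription. The genes are short, and most chemokines lie in clusters of related copies, CXC chemokines on bovine chromosome 6 and CC chemokines on chromosome 19.

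The windows of the 8 libraries held between 18691111 and 35525554 reads, and 3 reads, the smallest count told here from 0, corresponded to 0.0844 to 0.161 CPM, the count scaled to the library total. These limits reflect counting alone, and whether PCR copies were removed is not given in the sources used here. Holstein 1 and Angus 3 stood apart, with 69.0% and 72.4% of their reads in the top 1% of windows, against 46.8 to 57.4% in the other 6 libraries. In plain CPM Holstein 1 was the lowest Holstein library at 11 of the 11 loci, and Angus 3 was the lowest Angus library at 8 of 11. After trimmed-mean (TMM) scaling, which corrects each library for such dominant windows, Holstein 1 was lowest at 4 loci and Angus 3 at 1. After that scaling Angus 4 was the lowest Angus library at 8 of 11 loci, against 3 in plain CPM, and Holstein 3 was the lowest Holstein library at 5. Levels are given below in plain CPM, and the breed means also in TMM-scaled CPM (SD, n = 4 per breed). The label of the cell type could not be checked by expression in these DNA libraries.

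The 66 gene windows held few reads. Their mean over the 8 libraries ran from 0.0397 to 1.39 CPM with a median of 0.303 CPM, close to the median of all windows (0.280 CPM) and of all windows with a gene name (0.339 CPM). Of the 66, 32 lay under the median of all windows and 40 under that of named windows. The symbol CXCL2 carried 42 of the 66, with 24 under the first median and 29 under the second. The other 24 windows had a median of 0.352 CPM, with 8 under the first and 11 under the second. In 19 windows at least 4 libraries had 3 reads or fewer. The highest coverage of any single base was 19, and it exceeded 10 in 2 windows. The filter of the test for differentially methylated regions (DMRs), 1 CPM or more in 4 or more libraries, was reached by 3 of 66 windows, namely CSF2 window 1, CXCL2 window 25 and CCL5 window 3, counting windows along the strand of the gene.

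**Figure D1:**
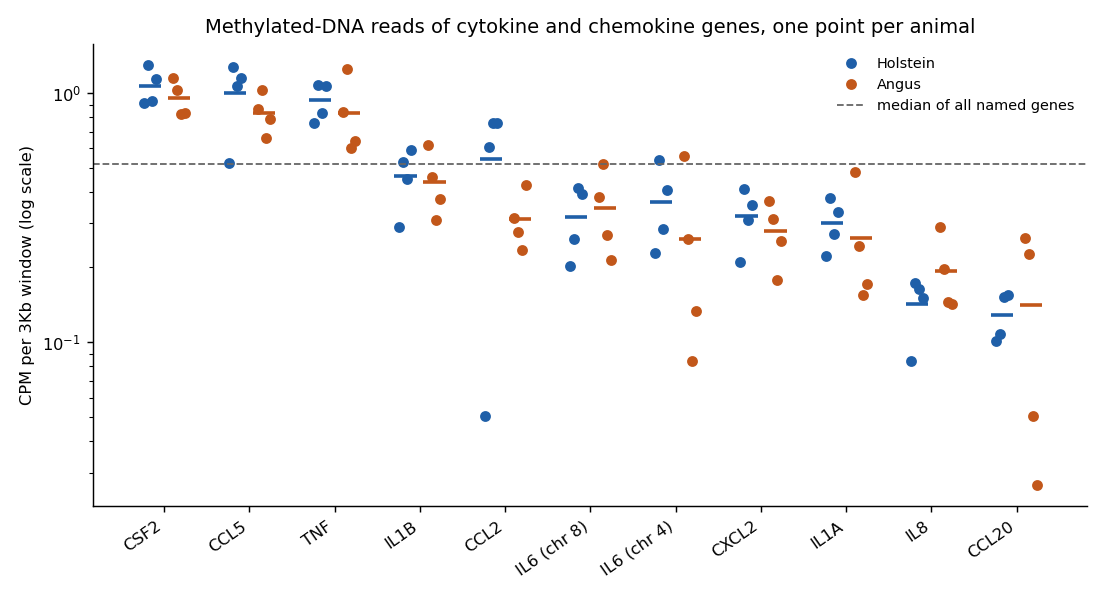
Reads per gene as CPM per 3Kb window (log scale), 1 point per animal, Holstein in blue and Angus in orange, with bars at the breed means. CSF2, CCL5 and TNF lie near 1 CPM, the other loci mostly under the dashed median of all named genes (0.521 CPM), and the breeds overlap at every locus.

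Per window, the genes fell into 3 levels. CSF2 (1.01 ± 0.171 CPM, SD, n = 8), CCL5 (0.919 ± 0.256) and TNF (0.885 ± 0.229) were highest. IL1B (0.454 ± 0.123), CCL2 (0.429 ± 0.258), IL6 on chromosome 8 (0.333 ± 0.113), IL6 on chromosome 4 (0.312 ± 0.176), CXCL2 (0.301 ± 0.0807) and IL1A (0.282 ± 0.111) followed, and IL8 (0.168 ± 0.0591) and CCL20 (0.135 ± 0.0809) were lowest. Among all genes with a window CSF2 stood at percentile 70.2, IL1B at percentile 45.5, IL8 at percentile 11.2 and CCL20 at percentile 7.95. Neighbours in this order kept their order in 8 of 8 libraries only at the steps from TNF to IL1B, a difference of 0.431 ± 0.186 CPM, and from IL1A to IL8, a difference of 0.114 ± 0.0782 CPM. The other neighbours kept it in 4 to 6 of 8 libraries and were not separated beyond the spread between animals.

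The cytokine IL1A, a precursor that acts as an alarm signal when cells are damaged, lies on chromosome 11 of UMD 3.1 on the minus strand, in 5 windows from 46347685 to 46362684. It had 0.223, 0.381, 0.272 and 0.332 CPM per window in Holstein 1 to 4, against 0.482, 0.243, 0.154 and 0.171 CPM in Angus 1 to 4. The Angus values enclosed the Holstein values, and the TMM-scaled means were 0.282 ± 0.0256 CPM in Holstein and 0.262 ± 0.107 in Angus. IL1A was the locus with the deepest dip against its surroundings: its flanking windows had 0.656 ± 0.186 CPM (n = 8), the gene windows 0.430 of that, and the gene was below its flanks in 8 of 8 libraries, as was its first window. The outer downstream flank raised this flank mean, at 1.10 CPM against 0.448 to 0.581 CPM in the other flanks. Window 5 of the gene, at 0.449 CPM, was level with the lowest flank. Windows 2 and 3, which list coding exons 3 and 4, were lowest at 0.157 and 0.145 CPM. Of all 25327 genes with flanking windows, 21.0% were below their flanks in every library and 30.7% had such a first window, so that a dip of this kind was common.

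IL1B encodes the secreted IL-1 form that macrophages release after inflammasome cleavage and that itself stimulates fibroblasts. Its 4 windows lie further along the same chromosome, from 46407685 to 46419684, also on the minus strand. The Holstein libraries had 0.291, 0.530, 0.454 and 0.591 CPM per window and the Angus libraries 0.620, 0.461, 0.311 and 0.375 CPM. The ranges overlapped, and TMM-scaled values had means of 0.430 ± 0.0365 CPM in Holstein and 0.453 ± 0.0687 in Angus. In contrast to IL1A, IL1B was above its flanks in 8 of 8 libraries (1.25 times their level), which 37.6% of all genes were. Window 2, which lists coding exon 4, was highest at 0.698 ± 0.200 CPM (n = 8).

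TNF, the cytokine that activates endothelium and leukocytes early in inflammation, has a single window on chromosome 23 (27533793 to 27536792, minus strand) between LOC100847561 and LTB, the gene of its relative lymphotoxin beta. The counts were 15, 25, 22 and 38 reads in Holstein 1 to 4, or 0.759, 1.08, 0.832 and 1.07 CPM, and 24, 36, 18 and 12 reads in Angus 1 to 4, or 0.838, 1.25, 0.604 and 0.642 CPM. The highest and the lowest library were both Angus, with TMM-scaled means of 0.885 ± 0.111 CPM (Holstein) and 0.863 ± 0.237 CPM (Angus). TNF was 1.08 times its flanks and below them in 3 of 8 libraries. The windows next to it held 1.49 CPM on the LOC100847561 side and 0.631 CPM on the LTB side, with TNF between them.

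IL6, which drives the acute phase response, was listed in 2 windows on chromosome 4 (31577805 to 31583804, plus strand). The first lists coding exon 1 and the second exon 4. The CPM per window was 0.228, 0.541, 0.284 and 0.408 in Holstein 1 to 4, against 0.559, 0.261, 0.0840 and 0.134 in Angus 1 to 4. Angus 3 and 4 had 5 reads each over both windows and lay under all Holstein libraries, while Angus 1 was above them. Scaled by TMM, Holstein had 0.334 ± 0.0710 CPM and Angus 0.247 ± 0.167 CPM. The first window was below its flanks in 7 of 8 libraries, at 0.543 of their level. Another window named IL6 lies on chromosome 8 (23286787 to 23289786), next to LOC787664. The RefSeq table for the newer assembly ARS-UCD2.0 places IL6 on chromosome 4 only. That window held between 4 and 15 reads per library, it is kept apart here, and whether its reads belong to IL6 cannot be told from these data.

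CSF2 encodes the growth factor GM-CSF, which expands and activates granulocytes and macrophages. It lies in 2 windows of chromosome 7 (23691446 to 23697445, minus strand). It had 36, 60, 49 and 81 reads in the Holstein and 66, 59, 49 and 31 reads in the Angus libraries, each in the order of animals 1 to 4, or 1.07 ± 0.185 CPM per window in Holstein and 0.957 ± 0.160 in Angus (n = 4 each). After TMM scaling the breed means were nearly level, at 1.02 ± 0.168 CPM in Holstein and 1.01 ± 0.174 CPM in Angus. Window 1 (1.39 ± 0.275 CPM, n = 8) was the highest of the 66 windows and lay beside upstream windows of 1.64 and 1.47 CPM that carry no gene name, while window 2 had 0.633 CPM. Averaged over both windows, CSF2 was below its flanks in 7 of 8 libraries.

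**Figure D2:**
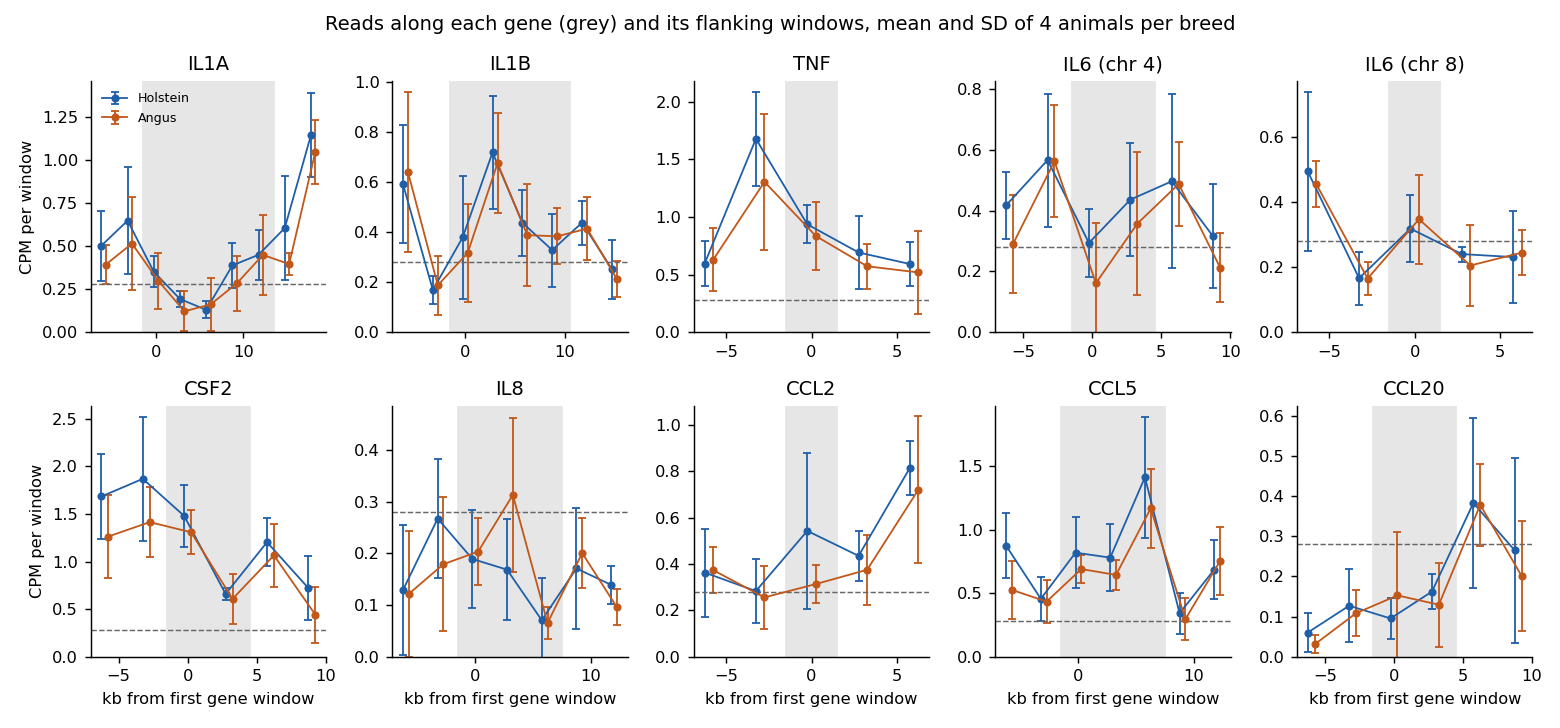
CPM per window (mean and SD of 4 animals, lower bars cut at 0) against distance from the first window of the gene in kb, along 10 loci with their flanks. Grey marks the gene windows and the dashed line the median of all windows (0.280 CPM), and the dip over IL1A and the rise over CCL5 are seen in both breeds.

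The chemokine IL8, named CXCL8 in RefSeq, attracts neutrophils through CXCR1 and CXCR2 and is a common readout of fibroblast responses. Its 3 windows on chromosome 6 (90556982 to 90565981, plus strand) were among the emptiest, with 5, 12, 13 and 16 reads in Holstein 1 to 4, against 25, 17, 13 and 8 reads in Angus 1 to 4. Per window this was 0.0843 to 0.173 CPM in Holstein and 0.143 to 0.291 CPM in Angus. Its flanks were as empty, the gene having 1.03 times their level, and the third window had 0.0680 CPM, under the lowest floor of any library.

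CCL2, which attracts monocytes through CCR2, has a single window on chromosome 19 (16232675 to 16235674, minus strand), which lists coding exon 3. It held 1, 14, 20 and 27 reads in Holstein 1 to 4, against 9, 8, 7 and 8 reads in Angus 1 to 4. Holstein 1 was the lowest of all libraries and the other 3 Holstein libraries were the highest in CPM, at 0.606 to 0.760 against 0.235 to 0.428 in Angus. In TMM-scaled CPM this locus had 0.468 ± 0.280 in Holstein and 0.329 ± 0.0774 in Angus. The level was 0.946 of that of the flanks, below them in 4 of 8 libraries.

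CCL5, known as RANTES, attracts T cells and monocytes and lies in 3 windows of the same chromosome (14822675 to 14831674, plus strand). Its CPM per window was 0.523, 1.27, 1.07 and 1.15 in Holstein 1 to 4, against 0.861, 1.03, 0.660 and 0.785 in Angus 1 to 4. Holstein 1 was the lowest library and the other 3 Holstein libraries were above all Angus libraries in plain CPM. After TMM scaling the breeds had 0.914 ± 0.137 CPM (Holstein) and 0.873 ± 0.128 CPM (Angus, n = 4 each), and the 2 ranges were intermixed. CCL5 stood out most above its surroundings, at 1.68 times its flanks (0.546 CPM) and above them in 8 of 8 libraries. The last window, which lists coding exon 3, carried most of this at 1.29 ± 0.395 CPM (n = 8), next to the window of C19H17orf66 at 0.320 CPM.

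CCL20, the ligand of CCR6 that attracts immature dendritic cells and lymphocytes, had the fewest reads per window of the 10 genes. Over its 2 windows on chromosome 2 (116758134 to 116764133, plus strand) it held 4, 5, 8 and 11 reads in Holstein 1 to 4, against 15, 13, 3 and 1 reads in Angus 1 to 4. Angus 1 and 2 were above and Angus 3 and 4 below every Holstein library, and the TMM-scaled means were 0.123 ± 0.0250 CPM in Holstein and 0.135 ± 0.0993 CPM in Angus. In the first window Angus 3 had 0 reads, which with a floor of 3 reads allows up to 0.101 CPM.

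The symbol CXCL2, a neutrophil attractant of the growth-related oncogene family that acts through CXCR2, covered 42 windows over a 132 kb span on chromosome 6 (90694982 to 90826981, plus strand), far more than a chemokine gene occupies. Only windows 41 and 42 list a coding exon, exon 1 and exon 4, and 2 windows of LOC100847175 interrupt the span after window 3. In the RefSeq order on ARS-UCD2.0, CXCL2 is followed by LOC100847175, LOC101906736, CXCL3 and GRO1, and no window here is named CXCL3 or GRO1. These paralogs are alike in sequence, and which of them the reads of a window came from cannot be told apart in these counts.

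Over the 42 windows the CPM per window was 0.211, 0.411, 0.311 and 0.357 in Holstein 1 to 4, against 0.369, 0.313, 0.178 and 0.256 in Angus 1 to 4. The breeds overlapped (TMM-scaled 0.298 ± 0.0195 CPM in Holstein and 0.284 ± 0.0287 CPM in Angus), and 24 of 42 windows were under the median of all windows. Window 25 (90772982 to 90775981) rose out of the span at 1.38 ± 0.228 CPM (n = 8), with 23, 30, 34 and 50 reads in Holstein 1 to 4, against 41, 51, 32 and 30 in Angus 1 to 4. It was the only CXCL2 window to reach 1 CPM in all 8 libraries, and window 40 was lowest of the 42 at 0.0397 CPM. Window 1 was 1.98 times the flanking and intervening windows and above them in 8 of 8 libraries, as 22.1% of all first windows were. Window 1 lies 126 kb from window 41, where coding exon 1 is listed, and does not stand for its promoter.

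**Figure D3:**
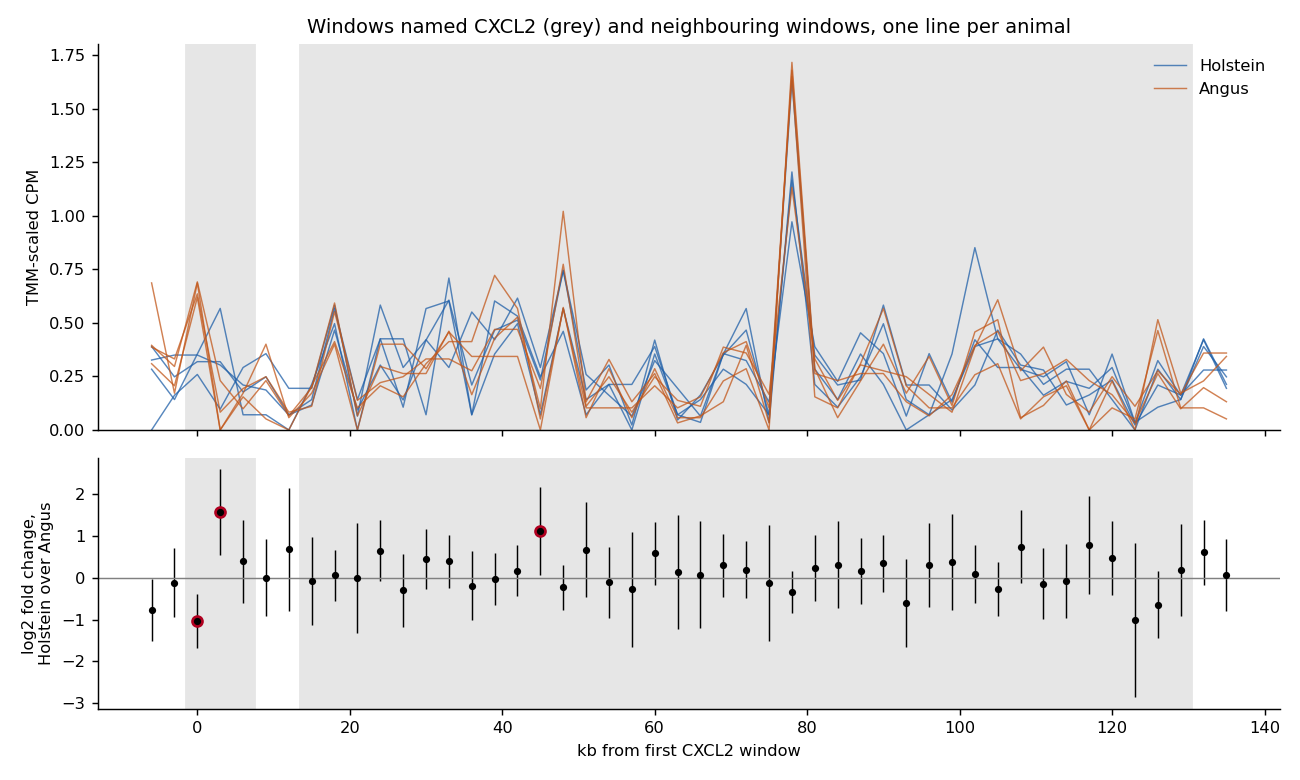
TMM-scaled CPM of each animal (top) and log2 fold change of Holstein over Angus with its 95% interval (bottom) along the windows named CXCL2 (grey), against kb from the first of them. Window 25 is the peak at 78 kb in all 8 animals. Red points mark the CXCL2 windows with an unadjusted p under 0.05, windows 1, 2 and 14, in opposite directions. The flanking window at -6 kb is not marked (unadjusted p = 0.0403 in edgeR's likelihood-ratio test, log2 fold change -0.775).

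Averaged over the 10 genes (IL6 on chromosome 4), gene windows differed from their flanks by -0.0175 ± 0.0338 CPM (SD over 8 libraries), and first windows by 0.0102 ± 0.0467 CPM, both within the spread between libraries. The first windows include that of CXCL2, which lies far from its listed coding exons. Those of IL1B, TNF, CSF2 and CCL2 list a later coding exon than exon 1. The genes did not share a direction: IL1A was below and IL1B and CCL5 above their flanks in every library, and the other 8 loci were mixed.

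Breeds were compared with edgeR's likelihood-ratio test over all windows with Benjamini-Hochberg adjustment. The 8 animals are separate donors of the cultures. The test shares dispersion over windows of like level, so p-values do not measure the spread between animals at a single window alone. The CCL2 window (SD 0.258 CPM over 8 libraries) and IL1B window 3 (0.162 CPM) had log2 standard errors of 0.342 and 0.343. With the CPM filter, FDR < 0.1 and a fold change of at least 2, 0 of the 3 member windows that passed the filter were DMRs, and 0 had an unadjusted p under 0.05. The background was 267 of 115360 windows (0.231%) called and 4.94% with an unadjusted p under 0.05. All member windows lie on placed chromosomes, and a fit on these alone called 124 of 113569 windows. Without the filter 0 of 66 windows were called, against 905 of 887821 (0.102%), or 483 of 885069 on placed chromosomes alone. By edgeR's quasi-likelihood test and by DESeq2 0 of the 3 filtered windows were called either, against 141 of 115360 and 141 of 115333 windows.

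On reads summed over all windows of a gene, 5 loci passed the filter (IL1A, IL1B, CSF2, CXCL2 and CCL5) and 0 were called, with 0 at an unadjusted p under 0.05. Of 19408 genes 0.0721% were called and 1.97% had an unadjusted p under 0.05. Without the filter 0 of 11 loci were called, against 0.134% of 25466 genes. There 1 of 11 loci, IL8, had an unadjusted p under 0.05, against 2.80% of all genes, and by the quasi-likelihood test 0 of 11, against 2.26%. At all 11 loci the breeds overlapped in CPM and in TMM-scaled CPM. The share over all genes was not computed. Of all windows only 1.25% (CPM) and 2.35% (TMM-scaled CPM) did not overlap, so this overlap is not particular to these loci.

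The 95% interval of the summed fold change was inside 2-fold both ways at 6 of 11 loci. CXCL2, with the most reads, had a log2 fold change of Holstein over Angus of 0.07 ± 0.13 (SE), a ratio between 0.881 and 1.24. CCL5 had 0.10 ± 0.17, and IL1A 0.05 ± 0.26. Slightly negative values of IL1B (-0.07 ± 0.18), CSF2 (-0.02 ± 0.19) and TNF (-0.01 ± 0.25) turned positive, to 0.09, 0.16 and 0.16, when libraries were scaled by total counts alone, a scaling that moved the median of all genes by 0.15.

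Wider intervals were found where reads were few. IL6 on chromosome 4 had a log2 fold change of 0.35 ± 0.38 (SE), a ratio between 0.761 and 2.14, and CCL20 -0.29 ± 0.46, between 0.437 and 1.52. The IL6 value moved most without Angus 1, when it was 0.91 ± 0.36 (unadjusted p = 0.012, FDR = 0.570 in edgeR's likelihood-ratio test). CCL2 was 0.69 ± 0.39 (0.953 to 2.72, unadjusted p = 0.0752 in edgeR's likelihood-ratio test), with Holstein 1 at 1 read against 14 to 27 in the other Holstein libraries. Without Holstein 1 it was 0.93 ± 0.34 (unadjusted p = 0.00582, FDR = 0.796 in the same edgeR test), and without Holstein 1 and Angus 3 it was 0.95 ± 0.37 (unadjusted p = 0.00968, FDR = 0.970). IL8 was -0.62 ± 0.30 (0.434 to 0.977, unadjusted p = 0.0383, FDR = 1 in the same test), lower in Holstein, and its unadjusted p stayed under 0.05 in 3 of the 8 fits that left out 1 animal. Its TMM-scaled level was 0.132 ± 0.0162 CPM in Holstein and 0.200 ± 0.0472 in Angus (n = 4 each).

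**Figure D4:**
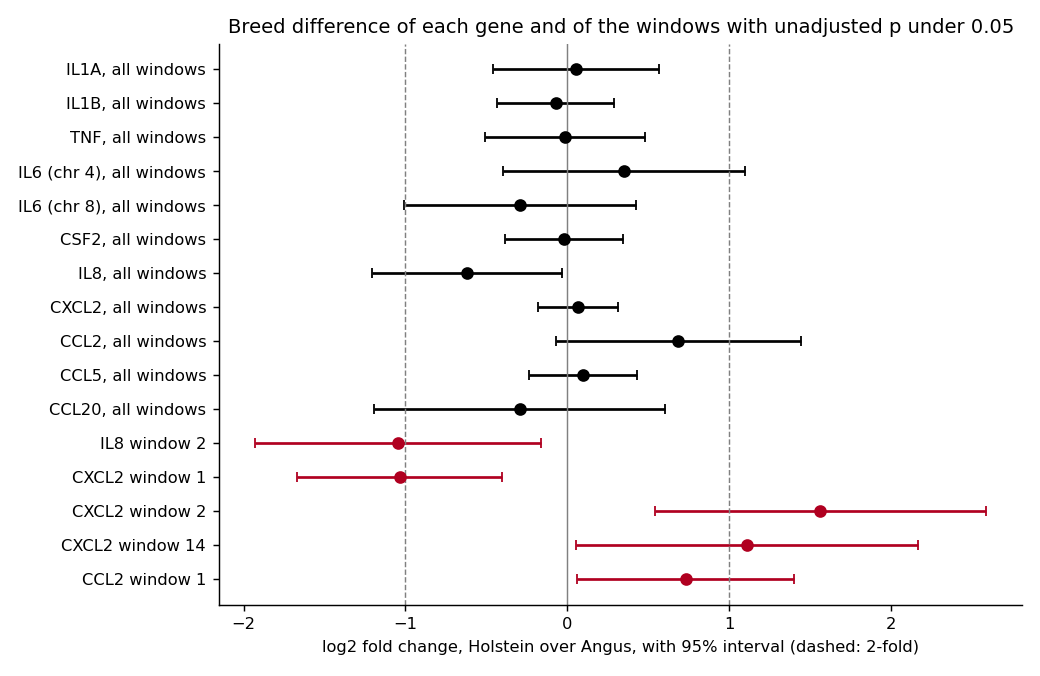
Log2 fold change of Holstein over Angus with its 95% interval for the summed windows of each locus (black) and for the single windows with an unadjusted p under 0.05 (red), dashed lines at 2-fold. The intervals of 10 of the 11 loci include 0, that of IL8 does not, and no value passes the FDR threshold.

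In single windows the median log2 fold change was 0.07 over the 66 windows, with 38 positive and 28 negative. An unadjusted p under 0.05 was found in 5 of 66 windows (7.58%), against 4.55% of all windows, and by the quasi-likelihood test also in 5, against 3.67%. A fold change of at least 2 was fitted in 5 of 66, against 5.68% of all windows. In plain CPM the breeds overlapped in all 66 windows (1.25% of all windows did not overlap). In TMM-scaled CPM they did not overlap in 4 of 66 (2.35% of all windows), namely IL8 window 2 and CXCL2 window 1, higher in Angus, and CXCL2 windows 19 and 35, higher in Holstein.

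The first CXCL2 window (90694982 to 90697981) held 5, 8, 9 and 15 reads in Holstein 1 to 4, against 23, 21, 12 and 12 reads in Angus 1 to 4. In TMM-scaled CPM the Holstein libraries had 0.259 to 0.355 and the Angus libraries 0.619 to 0.691. Holstein over Angus this was -1.04 ± 0.32 on the log2 scale (SE, FDR = 0.501 in edgeR's likelihood-ratio test). The adjoining window 2 went the other way, with 8, 3, 9 and 13 reads in Holstein and 3, 7, 0 and 0 reads in Angus. Its log2 fold change was 1.57 ± 0.52 (FDR = 0.643 in the same edgeR test), and the breeds overlapped, because Angus 2 with 7 reads had more than Holstein 2 with 3. Without Angus 2 it was 2.72 with FDR = 0.122, the lowest FDR of a member window in any fit, still over the threshold.

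Of the IL8 windows, window 2 (90559982 to 90562981, coding exon 2) had an unadjusted p under 0.05 in edgeR's likelihood-ratio test. There 3, 6, 1 and 8 reads were counted in Holstein 1 to 4, against 14, 11, 5 and 4 in Angus 1 to 4. Holstein over Angus the log2 fold change was -1.05 ± 0.45 (SE, FDR = 1 in edgeR's likelihood-ratio test), against -0.25 ± 0.48 in the first window of IL8. CXCL2 window 14 had 1, 9, 7 and 10 reads in Holstein and 7, 3, 1 and 0 in Angus, a log2 fold change of 1.11 ± 0.54, which was 1.87 without Angus 1. The CCL2 window reached 0.73 ± 0.34 (FDR = 1 by edgeR) in the fit over windows. All 5 windows had at most 27 reads in any library.

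Other genes of the same pathways were taken from lists of chemokines, cytokines and receptors. With the CPM filter 0 windows and 0 genes were called in any of the lists, of 19 tested windows for 27 other chemokines, 37 for 40 other cytokines and 76 for 30 receptors. Genes that passed the filter numbered 15, 32 and 30. Over all features 0.231% of windows and 0.0721% of genes were called, so 0 calls in lists of this size are not particular to them. Without the filter, of 71, 197 and 268 windows tested for these lists 1 was called, against 0.102% of all windows, at IL7, a cytokine that sustains lymphocytes. This window on chromosome 14 (44159947 to 44162946) held 2, 5, 7 and 6 reads in Holstein 1 to 4, against 16, 19, 9 and 11 in Angus 1 to 4, a log2 fold change of -1.60 ± 0.39 (SE, FDR = 0.0460 in edgeR's likelihood-ratio test). The quasi-likelihood test did not call it, with FDR = 0.156. The Holstein counts were all under the Angus counts.

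First windows of the 11 loci had a median of 0.348 CPM, beside 0.395 CPM for all first windows, 0.487 for other chemokines, 0.531 for other cytokines and 0.907 for receptors. That of CXCL2 lies far from its listed coding exons. As a description of the cells, first windows of 10 fibroblast markers had a median of 0.155 CPM, 9 leukocyte markers 0.745 CPM, and 9 epithelial, endothelial and melanocyte markers 1.08 CPM. The lists overlapped, and the first windows of the 11 loci ran from CCL20 at 0.124 CPM to CSF2 at 1.39 CPM.

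**Figure D5:**
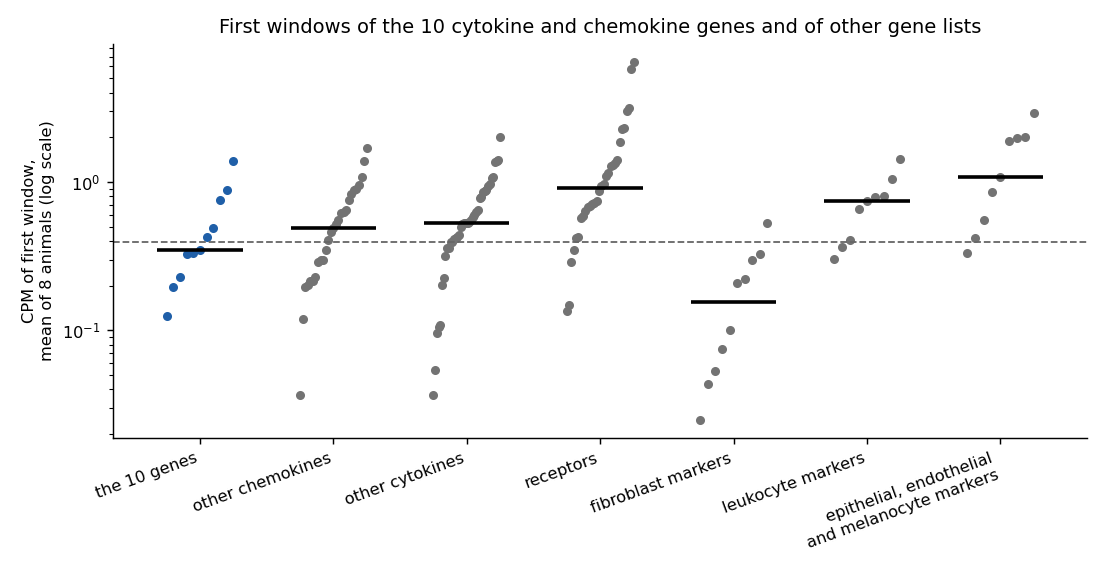
CPM of the first window of each gene (mean of 8 animals, log scale) for the 10 cytokine and chemokine genes (11 loci, blue) and other gene lists (grey), with bars at the medians and a dashed line at the median of all first windows. The 11 loci span 0.124 to 1.39 CPM around that line, and the first window of CXCL2 lies far from its listed coding exons.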

How the data were processed

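The authors filtered the reads, aligned them to bovine UMD v3.1 with NextGENe 2.3.4 and deposited raw read counts per 3Kb window, not normalized, with the coverage of each window (mean and highest) as a signal not scaled for depth. CASAVA 1.7 is named in the submitters' processing notes. Treatment of duplicate and multiply matching reads is not given in the sources used here, and no input library was used, so that counts also depend on CpG density and pull-down efficiency.

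Libraries were grouped by the breed in the labels, 4 against 4. Windows were matched by symbol. Library sizes were the totals over windows. The authors' design was followed with edgeR 4.0.16 in R 4.3.3 (TMM, estimateDisp, generalized linear model likelihood-ratio test, Benjamini-Hochberg over all windows or genes, 1 CPM or more in 4 or more samples, FDR < 0.1 and FC of at least 2). This fit called 267 windows, 45 higher in Holstein and 222 in Angus. The paper reports fewer DMRs, split almost evenly between the breeds, so its count was not reproduced. The reason was not tested. A second fit without the CPM filter gave each member window a value. Standard errors are the log2 fold change over the root of the likelihood ratio, and 95% intervals are 1.96 standard errors to each side. Levels and figures were computed in Python 3.11.15. As a check of the code, the fits were also run on simulated counts with planted changes. These counts had the same dispersion in all features and no library like Holstein 1 or Angus 3, so they do not test the fits under such conditions. The files gave no transcription start, so the first window by strand stood for the promoter. CXCL2 is an exception, because its window 1 lies 126 kb from window 41, which lists coding exon 1. It was kept among the first windows but is not read as a promoter. The flanks of CXCL2 included the 2 intervening windows.

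All windows of the 10 genes were examined. Of other genes, those in flanking windows and those of the chemokine, cytokine and receptor lists that were called, at most 5 per fit, are named. Members and lists were chosen with earlier results of these data known. Of the 10 members 10 matched the RefSeq table of ARS-UCD2.0, used for names and gene order only. Promoter sequences were not analysed here. Alternatives were other filters, thresholds and scalings, the quasi-likelihood test, DESeq2 1.42.0, a block for the animal number, and the removal of each animal in turn.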

Additional observations from a re-analysis of the deposited data

Results flagged for a closer look

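Of 38 groups of 4 animals tested with Dixon's test for an animal far from the others, 3 were found. Its threshold is passed by about 1 in 20 groups of independent, normally distributed values. Groups here share windows and some hold few reads, so this rate is only a rough guide. All 3 groups found hold a high value in TMM-scaled CPM. Over the CXCL2 windows Holstein 2 had 0.328 CPM per window, against 0.287 to 0.291 in the other Holstein libraries. In the first window of IL6 on chromosome 4 Angus 1 had 0.359 CPM, against 0.0515 to 0.0988 in the other Angus libraries, which is 13 reads against 1 to 3. In the first window of CCL20 Holstein 4 had 0.140 CPM, against 0.0648 to 0.0709 in the other Holstein libraries, or 6 reads against 1 or 2. The cause was not tested.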

How the results depend on the processing

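No member window or locus was called under any alternative run. The numbers called genome-wide moved. For windows (267) they were 425 with no fold change minimum, 905 with no CPM filter, 163 with 1 CPM or more in all 8 samples, 141 with the quasi-likelihood test, 141 with DESeq2, 124 on placed chromosomes only and 559 without Holstein 1 and Angus 3. The last 2 settings were chosen after seeing the data. For genes (14) they were 22, 34 and 9 with the first 3 settings, 22 with total counts only, 0 with the quasi-likelihood test (1.97% of genes had an unadjusted p under 0.05 in the likelihood-ratio test), 6 with DESeq2 and 23 without both libraries. Leaving out each animal gave 168 (without Holstein 4) to 575 windows (without Holstein 1) and 9 to 24 genes. Member windows with an unadjusted p under 0.05 (5) numbered 3 with total counts only, 3 without both libraries and 2 to 6 when each animal was left out. The share of all windows (4.55%) moved too, to 2.57%, 4.47% and 4.28% to 5.89% in these settings. Loci (1) numbered 0 with total counts, 0 with the quasi-likelihood test, and 0 to 1 when each animal was left out. The locus was IL8 in the reported fit but CCL2 without Holstein 1 or without both libraries, and IL6 without Angus 1. The share of all genes (2.80%) was 1.48% with total counts, 2.26% with the quasi-likelihood test and 2.43% to 6.43% when each animal was left out. The animal number as a block gave 346 windows, 17 genes, 0 called members and 0 loci with an unadjusted p under 0.05; animals of the same number did not deviate together (mean correlation -0.0199, against 0.0102 for different numbers). Under the block CSF2 became 0.012, CSF2 window 1 0.0042, TNF 0.026 and its window in the fit over windows 0.0097 on the log2 scale. With total counts CSF2 became 0.16, its window 1 0.17, IL1B 0.087, TNF 0.16 and its window 0.16. Without both libraries IL1A became -0.052, CSF2 window 1 0.11 and IL8 window 1 0.13. Leaving out each animal moved these small values through 0: CSF2 from -0.096 to 0.068, IL1A from -0.10 to 0.39, IL1B from -0.15 to 0.038, CCL20 from -0.59 to 0.035, TNF from -0.12 to 0.20, its window from -0.16 to 0.21, first windows of IL1A from -0.088 to 0.29, IL1B from -0.21 to 0.38, CSF2 from -0.14 to 0.20, IL8 from -0.46 to 0.0053 and CCL5 from -0.084 to 0.17, and CCL5 window 3 from -0.00082 to 0.20. IL8 stayed between -0.73 and -0.46, CXCL2 window 1 between -1.11 and -0.94, CXCL2 window 14 between 0.84 and 1.87, IL6 between 0.14 (without Angus 3) and 0.91 and CCL2 between 0.49 (without Holstein 3) and 0.93. The mean difference of gene windows from flanks lay between -0.0378 and 0.00267 CPM over the alternatives, that of first windows between -0.00702 and 0.0304. In single windows the 95% interval was inside 2-fold both ways in 24 of 66.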
